A study of Mus musculus with 8 samples.

Results

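Gr1lo monocytes of mouse blood that carried latex beads were compared with Gr1lo monocytes that carried none. Each difference was taken between 4 of the 8 arrays of the study, 2 with beads and 2 without. The spread behind its p-value was estimated from all 8. Every one of the 18193 genes that the arrays read through a probe set with a single gene symbol was tested. For a gene with several such probe sets, the one with the highest mean over the 8 arrays was used. The members were chosen by label, and no expression value entered that choice.

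All mice were male C57BL/6 and received fluorescent latex microspheres of 1 µm by vein. Blood monocytes were sorted 4 days later by subset and by the presence of beads, into Gr1hi (classical, Ly-6C high) and Gr1lo (nonclassical, Ly-6C low) cells with or without beads, and their RNA was hybridised to Affymetrix mouse arrays. The 4 groups have 2 arrays each, described as biological replicates. The number of mice and of cells behind an array is not given in the sources used here, so the p-values measure the spread between these arrays alone. Clodronate liposomes, which deplete phagocytes, are described in conflicting ways. The series text puts them 3 days before the beads and names no subset, but by the treatment protocol they belong to the labelling of classical cells, and nonclassical cells were labelled without them. Beads mark cells by uptake, so bead-carrying and bead-free cells of 1 subset can come from the same animals, which the labels do not state.

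Nonclassical monocytes patrol the vessel wall and take up particles from blood. Classical monocytes leave the marrow and can convert into nonclassical cells in blood. Macrophages that recycle the iron of red cells depend on the transcription factor Spi-C and export iron through ferroportin, and macrophages loaded with undigested material express lysosomal glycoproteins such as Gpnmb.

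Values below are log2 expression after robust multi-array averaging (RMA), so that a difference of 1 is a 2-fold change. A gene was called when limma gave a Benjamini-Hochberg adjusted p under 0.05 over all 18193 genes. A background level of 6.98 was set from 115 genes of smell, taste and hair keratin-associated proteins, as the 95th percentile of their means over the arrays. The array medians over all probe sets lay between 6.12 and 6.19, and 8615 to 8865 genes per array were above background. The subset labels were checked on nonclassical genes. Nr4a1, the nuclear receptor that nonclassical cells require, was at 13.35 to 13.56 on the Gr1lo arrays and at 11.16 to 11.36 on the Gr1hi arrays. Treml4, a surface receptor of nonclassical cells, was at 12.90 to 13.08 against 8.37 to 9.08, and Ace, the angiotensin-converting enzyme, at 11.37 to 11.79 against 7.33 to 7.99. In each of these 3 genes every Gr1lo array lay above every Gr1hi array. Ly6c2 was not analysed here.

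Control measures of the arrays were compared as well. The poly-A controls, bacterial RNAs added before labelling, averaged 10.44 and 10.45 on the bead arrays and 9.27 and 8.68 on the bead-free arrays, over 24 probe sets. The hybridization controls, over 18 probe sets, averaged 11.85 and 12.18 with beads and 10.78 and 11.10 without. The differences were 1.47 and 1.07, each with p = 0.333 in an exact permutation test (two-sided), below which the 6 possible assignments of 4 arrays cannot go. The 3' minus 5' difference of Actb, which grows with RNA degradation, was 0.56 and 0.58 with beads and 0.40 and 0.41 without, and that of Gapdh 0.087 and 0.080 with and -0.081 and -0.044 without. In each of these measures the bead arrays lay above the bead-free arrays. The 18S ribosomal RNA, over 3 probe sets, was at 10.07 and 10.64 with beads and at 8.58 and 10.13 without, and there the groups overlapped (p = 0.667 in the exact test). Their part in the gene differences was not tested.

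Bead-carrying Gr1lo cells had more of an iron exporter, of a lysosomal glycoprotein and of a growth factor, and less of a set of classical monocyte and lectin genes. Of 18193 genes 41 were called (0.225%), 15 of them higher (0.0824%) and 26 lower (0.143%) with beads. Differences of at least 2-fold were found in 9 of the 15 rises and 17 of the 26 falls, and of at least 4-fold in 2 and 7. In 9 of the 15 rises the bead-free mean was below background. Among the falls only the bead mean was below it in 7, and both means in 3. Against the background level Slc40a1 was at least 5-fold and Cd209a at least 7.56-fold apart. That bound was 2.62-fold for Gpnmb, 2.09 for Mmp8, 1.82 for Vcan, 1.62 for Klrd1 and 1.07 for Bex6. In all 41 genes the bead arrays did not overlap the bead-free arrays, which by itself was common, since 23.3% of all genes lay apart with beads higher and 19.4% with beads lower. An unadjusted p under 0.05 was reached by 6.27% of all genes in the upward and 6.93% in the downward direction. The count rested on the spread of few arrays. It was 12 in a fit of the 4 Gr1lo arrays alone and 127 with trended and robust variance estimates. It was 17 and 23 without bead array 1 or 2, 27 without either Gr1hi array with beads, 29 without bead-free array 1 and 354 without bead-free array 2. None of the 41 genes changed direction under any of the 16 settings in which genes were refitted. As their arrays did not overlap, leaving out 1 array could not reverse a direction. Fits that change only the variance estimate keep the difference itself. Slc40a1, Gpnmb, Cd209a, F13a1, Vcan and Chil3 were called under all 16. Of the 41 genes 11 lost their call in over 8 of these settings, namely Cd177, called under 3, and Klra2, Vamp5, Arhgap19, Clec4n, Cyp7b1, Hp, Sbk1, Ahr, S100a6 and Stxbp6.

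**Figure D1:**
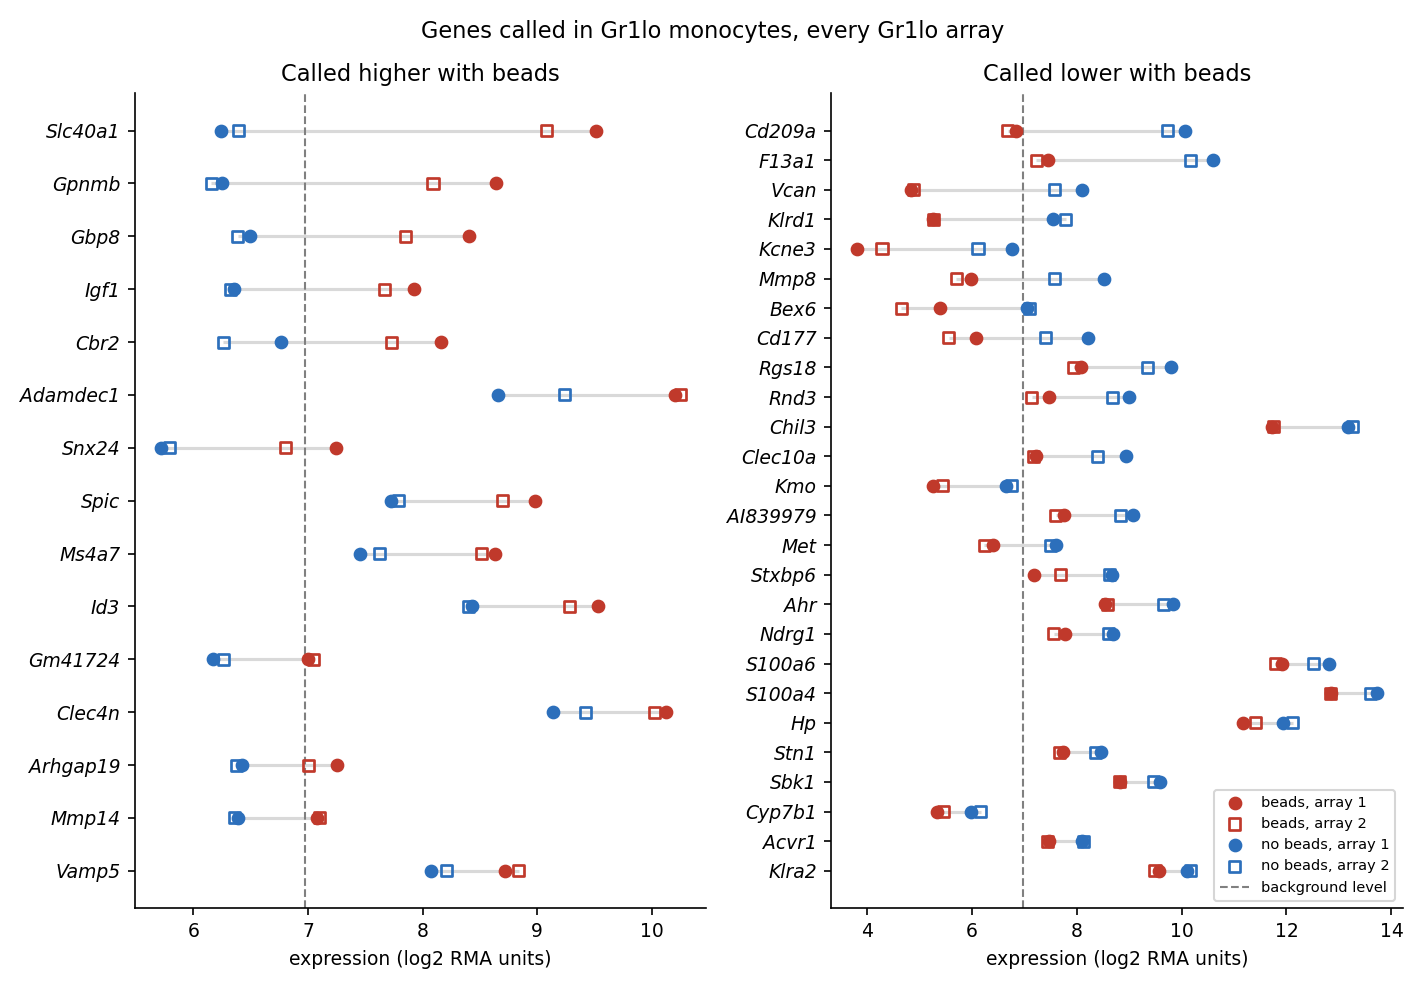
Expression of the 41 called genes on each of the 4 Gr1lo arrays, in log2 RMA units, with rises on the left and falls on the right and the background level as a dashed line. Red marks are arrays with beads and blue marks arrays without, and in every gene the red and blue marks are apart.

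Slc40a1, which encodes ferroportin, the only known cellular iron exporter, had the largest rise. It was at 9.51 and 9.08 on the bead arrays and at 6.24 and 6.39 on the bead-free arrays. The bead-free arrays were both below background and close to each other. The difference was 2.98 ± 0.14 (SE; limma adjusted p = 7.68e-05), at least 5-fold when the background level stands for the bead-free cells. A second Slc40a1 probe set was also called and differed by 2.26. Spic, which encodes the Spi-C transcription factor, was at 8.98 and 8.70 with beads and at 7.73 and 7.79 without. All 4 arrays were above background, and the difference was 1.08 ± 0.11 (adjusted p = 0.00732), with 1.68 in its other probe set. These were the 2 called genes of the 21 measured of an iron recycling list, against 0.0824% of all genes called higher. The list's median difference was 0.07, against 0.02 over all genes.

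The other iron genes were spread on both sides of zero. Tfrc, the transferrin receptor through which cells import iron, was at 7.83 and 7.89 with beads and at 7.55 and 7.53 without (0.32 ± 0.10, adjusted p = 0.243). Slc11a1, an iron and manganese transporter of the phagosome membrane, differed by 0.30 ± 0.08 (adjusted p = 0.225). Hmox1, which breaks down haem, was at 6.98 and 6.71 with beads and at 8.30 and 7.05 without. Its bead-free array 1 stood apart from the other 3 arrays, and the difference of -0.84 ± 0.39 was not called (adjusted p = 0.408). Flvcr1, a haem exporter, differed by -0.47 ± 0.12 (adjusted p = 0.192). Cd163, the receptor for haptoglobin-bound haemoglobin, was at 7.24 on bead-free array 1 and between 3.64 and 4.61 on the other Gr1lo arrays.

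Gpnmb, a glycoprotein of lysosomes and melanosomes, was at 8.64 and 8.09 on the bead arrays and at 6.25 and 6.16 on the bead-free arrays. Only the bead arrays were above background. The difference was 2.16 ± 0.17 (adjusted p = 0.00186), at least 2.62-fold against background. Its second probe set, below background, differed by 0.22. Gpnmb was the 1 called gene among 35 measured lysosome genes, against 0.0824% of all genes called higher, and their median difference was -0.04. Acp5, the tartrate-resistant acid phosphatase of macrophages and osteoclasts, was at 11.35 and 11.22 with beads and at 10.25 and 10.38 without. Its arrays did not overlap, but the difference of 0.97 ± 0.15 did not pass (adjusted p = 0.0677). The other genes of the list, among them cathepsins, proton pump subunits and lysosomal membrane proteins, differed by -0.42 to 0.37.

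Among secreted and signalling genes, Igf1, the insulin-like growth factor that macrophages release, was at 7.92 and 7.67 with beads and at 6.36 and 6.32 without. Both bead-free arrays were below background, and the rise was 1.46 ± 0.14 (adjusted p = 0.00698), or at least 1.76-fold against background. All 4 of its probe sets were higher with beads, by 0.59 to 1.46. Id3, an inhibitor of basic helix-loop-helix transcription factors that responds to bone morphogenetic proteins, was at 9.54 and 9.28 against 8.43 and 8.40 (1.00 ± 0.14, adjusted p = 0.0332). Igf1 and Id3 were the 2 called of 22 measured growth factor and receptor genes, with a list median of 0.09. Of all genes 0.0824% were called higher. Igf2r, the receptor that carries mannose 6-phosphate enzymes to lysosomes and binds Igf2, differed by 0.50 ± 0.11 (adjusted p = 0.135). Acvr1, a type I receptor for bone morphogenetic proteins, fell by 0.66 ± 0.08 (adjusted p = 0.0209), but 1 of its 3 probe sets shared that direction. Csf1r, the receptor for the growth factor that monocytes live on, was at 14.51 and 14.53 with beads and at 14.42 and 14.47 without (0.08 ± 0.08).

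Gbp8, a member of the interferon-inducible guanylate-binding proteins, was at 8.41 and 7.85 with beads and at 6.50 and 6.39 without (1.69 ± 0.19, adjusted p = 0.0163). Both bead-free arrays were below background, and the rise was at least 2.22-fold against background. Gbp8 was the 1 called of 10 measured genes of the guanylate-binding and immunity GTPases, whose median was -0.01. Of all genes 0.0824% were called higher. The family holds near-identical copies, and whether the Gbp8 probe set reads other members was not tested. Of 21 measured type I interferon response genes 0 were called at a limma adjusted p under 0.05, with a median of -0.04. At an unadjusted p under 0.05 there were 0 higher and 1 lower, against 6.27% and 6.93% of all genes.

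The remaining rises came from several functions. Adamdec1, a secreted metalloprotease of the ADAM family, was at 10.21 and 10.25 with beads and at 8.66 and 9.24 without (1.28 ± 0.17, adjusted p = 0.0315). Of the bead-free arrays, array 2 was the higher. Cbr2, a carbonyl reductase, was at 8.16 and 7.73 against 6.76 and 6.26 (1.43 ± 0.19, adjusted p = 0.0326). Snx24, a sorting nexin of endosomal membranes, rose by 1.27 ± 0.13 (adjusted p = 0.00884). It was at 7.243 and 6.805 with beads and at 5.715 and 5.789 without. Only bead array 1 was above background, and the rise was at least 1.03-fold against background. Snx24 was the 1 called of 25 measured engulfment genes, against 0.0824% of all genes called higher. Ms4a7, a tetraspan membrane protein of macrophages, rose by 1.03 ± 0.14 (adjusted p = 0.0332), while its other probe set differed by 0.06. Clec4n, the fungal pattern receptor Dectin-2, rose by 0.79 ± 0.11 (adjusted p = 0.0413). Smaller rises were those of Arhgap19, a GTPase-activating protein (0.73), and of Mmp14, a membrane-anchored metalloproteinase (0.72). Both were below background without beads, and their rises were at least 1.11-fold and 1.08-fold against background. Vamp5, a protein of the vesicle SNARE family (0.64), and 1 predicted gene rose as well.

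Genes known from classical monocytes were among the largest falls. Of the 17 measured classical monocyte genes 6 were called lower and 0 higher, against 0.143% and 0.0824% of all genes, and the list median was -0.66, against 0.02 over all genes. F13a1, the A chain of coagulation factor XIII, was at 7.46 and 7.24 with beads and at 10.61 and 10.17 without. Every array was above background, and the groups lay far apart, with a difference of -3.04 ± 0.15 (adjusted p = 7.68e-05). On the Gr1hi arrays F13a1 was at 13.15 to 13.58. Vcan, which encodes the matrix proteoglycan versican, was at 4.84 and 4.89 with beads and at 8.10 and 7.58 without. Its bead arrays were below background, so the difference of -2.97 ± 0.15 (adjusted p = 9.91e-05) is at least 1.82-fold against background. Of its 8 probe sets 3 were above background and 4 shared the direction, and their mean fell by 0.57. Chil3, a secreted chitinase-like protein of myeloid cells, was at 11.72 and 11.76 against 13.18 and 13.26. The replicates lay close together in both groups, and the difference was -1.48 ± 0.08 (adjusted p = 0.000107).

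The other classical genes called lower are shared with neutrophils or with plasma proteins. Mmp8, the neutrophil collagenase, was at 5.99 and 5.70 with beads and at 8.52 and 7.57 without (-2.20 ± 0.25, adjusted p = 0.0163). Cd177, a neutrophil surface protein, was at 6.08 and 5.56 against 8.22 and 7.40 (-1.99 ± 0.29, adjusted p = 0.0497). Both were below background with beads, and in both bead-free array 1 was the higher of its group by 0.95 and 0.81. Hp, the haemoglobin-binding protein haptoglobin, was at 11.17 and 11.41 against 11.94 and 12.12 (-0.74 ± 0.11, adjusted p = 0.0495). Neutrophil genes as a list had 2 of 15 called lower, Mmp8 and Cd177, against 0.143% of all genes, and a median of 0.02. Padi4, which citrullinates histones in neutrophils, differed by -2.36 ± 0.65 and S100a9, a subunit of calprotectin, by 1.45 ± 0.38, neither of them called (adjusted p = 0.222 and 0.201).

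Classical genes that were not called mostly differed in the same direction. Fn1, which encodes fibronectin, was at 8.49 and 8.53 with beads and at 13.63 and 10.87 without. Both bead-free arrays lay above both bead arrays but 2.76 apart, and the difference of -3.74 ± 0.68 was not called (adjusted p = 0.0996). Mgst1, a microsomal glutathione transferase, differed by -0.54 ± 0.09 (adjusted p = 0.0781). Ccr2, the chemokine receptor that draws classical monocytes out of the marrow, was at 11.06 and 10.59 against 11.71 and 11.26 (-0.66 ± 0.18, adjusted p = 0.203). The interferon-inducible membrane protein Ifitm6 differed by -0.40 ± 0.09 and the integrin chain Itgam by -0.45 ± 0.11. Over the list 15 of 17 genes had both bead arrays below both bead-free arrays, against 19.4% of all genes. In bulk samples such as these, fewer cells of a type and less RNA per cell cannot be told apart.

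Lectins and an enzyme of dendritic cells fell as well, and 3 of 19 measured dendritic cell genes were called lower and 0 higher, against 0.143% and 0.0824% of all genes. At an unadjusted p under 0.05 in limma 8 of the 19 were lower and 1 higher, against 6.93% and 6.27% of all genes. Cd209a, a C-type lectin of monocyte-derived and type 2 dendritic cells, was at 6.84 and 6.69 on the bead arrays and at 10.06 and 9.73 on the bead-free arrays. The bead arrays were below background and the bead-free arrays within 0.34 of each other. The difference of -3.13 ± 0.12 had the smallest adjusted p of all genes (4.44e-05) and is at least 7.56-fold against background. Clec10a, a galactose-binding lectin, was at 7.22 and 7.18 against 8.94 and 8.40 (-1.47 ± 0.19, adjusted p = 0.0263). Kmo, an enzyme of tryptophan breakdown, was at 5.26 and 5.45 against 6.65 and 6.76 (-1.35 ± 0.11, adjusted p = 0.00192), below background in both groups. Flt3, the growth factor receptor of dendritic cell precursors, differed by -0.55 ± 0.12 (adjusted p = 0.14). Ly6d, a membrane protein of lymphoid progenitors and plasmacytoid dendritic cells, was at 6.32 and 6.24 with beads and at 5.87 and 5.62 without, below background in both groups (0.54 ± 0.10, adjusted p = 0.113). Mgl2 and Cd24a, at 8.73 and 11.01 on bead-free array 1, were at 5.80 and 8.89 on bead-free array 2 and at 5.42 to 5.78 and 8.29 with beads. The list median was -0.09. The MHC class II genes, 10 of them measured, had 0 called in limma. At an unadjusted p under 0.05 there were 0 higher and 2 lower, against 6.27% and 6.93% of all genes. Their median was -0.20, which was -0.56 against bead-free array 1 and 0.005 against array 2.

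Receptors of natural killer cells showed 1 large fall. Klrd1, which encodes the CD94 chain of killer cell lectin receptors, was at 5.26 and 5.28 with beads and at 7.55 and 7.80 without. The bead arrays were below background and nearly equal, and the difference was -2.40 ± 0.12 (adjusted p = 7.68e-05), at least 1.62-fold against background. Klrk1, the activating receptor NKG2D, was at 6.82 and 6.61 against 8.01 and 7.45 (-1.01 ± 0.17, adjusted p = 0.0781). Klra2, a myeloid member of the Ly49 receptors, fell from 10.11 and 10.18 to 9.58 and 9.49 (-0.61 ± 0.09, adjusted p = 0.0413). Klrd1 was the 1 called of 15 measured NK cell genes, against 0.143% of all genes called lower. The mean level of that list was 5.23 and 5.29 on the bead arrays and 5.47 and 5.46 on the bead-free arrays, below background on all 4, and 2 of its 15 genes had a mean above background.

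Further falls were found in calcium-binding proteins, signalling and transport genes. S100a4, a small calcium-binding protein of motile cells, was at 12.86 and 12.84 with beads and at 13.72 and 13.61 without (-0.82 ± 0.08, adjusted p = 0.00732), and S100a6 of the same family fell by 0.82 ± 0.11. Rgs18, a regulator of G-protein signalling, fell by 1.56 ± 0.14 (adjusted p = 0.00455) and Rnd3, an atypical small GTPase, by 1.53 ± 0.15 (adjusted p = 0.00732), both with 2 probe sets called. Met, the receptor for hepatocyte growth factor, was at 6.40 and 6.24 against 7.61 and 7.51 (-1.24 ± 0.10, adjusted p = 0.00206). Ahr, the aryl hydrocarbon receptor, was at 8.55 and 8.59 against 9.84 and 9.65 (-1.18 ± 0.17, adjusted p = 0.0497). Ndrg1, a stress- and hypoxia-responsive gene, fell by 0.98 ± 0.10 with 2 of 5 probe sets called. The other falls were Kcne3, a potassium channel subunit (-2.39 ± 0.31, below background in both groups), Bex6 (-2.05 ± 0.21), the long noncoding RNA AI839979 (-1.27 ± 0.15) and Stxbp6, a syntaxin-binding protein (-1.22 ± 0.16). Stn1, of the telomere-capping complex (-0.71), the kinase gene Sbk1 (-0.71) and Cyp7b1, an oxysterol hydroxylase (-0.69), fell by less. Of 20 called genes with several probe sets 16 had all of them in 1 direction, the exceptions being Acvr1, Cyp7b1, Stn1 and Vcan.

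Promoter sequences were read for 27 of the 41 called genes from RefSeq (GRCm38.p6), as the 250 bases before each annotated start. The genes not matched included Slc40a1, Klrd1, Gbp8 and Hp. Gpnmb and Spic are shown because both rose with beads. Kmo and Mmp8 are shown because theirs were the only ones of the 27 with the PU box as searched. The PU box is the element that PU.1 and Spi-C bind. It was searched only as the exact sequence GAGGAAGT, on both strands, and is in capitals. Other forms of the element were not searched, so a promoter without capitals can still hold one. The Gpnmb stretch is chr6:49036268-49036517 on the plus strand, that of Spic chr10:88683024-88683273 on the minus strand, that of Kmo chr1:175631943-175632192 and that of Mmp8 chr9:7558179-7558428, both plus.
Gpnmb: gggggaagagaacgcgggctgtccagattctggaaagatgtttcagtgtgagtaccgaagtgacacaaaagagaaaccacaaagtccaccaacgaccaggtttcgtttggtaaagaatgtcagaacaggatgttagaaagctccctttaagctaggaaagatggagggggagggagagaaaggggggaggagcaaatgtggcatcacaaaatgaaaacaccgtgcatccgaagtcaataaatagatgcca
Spic: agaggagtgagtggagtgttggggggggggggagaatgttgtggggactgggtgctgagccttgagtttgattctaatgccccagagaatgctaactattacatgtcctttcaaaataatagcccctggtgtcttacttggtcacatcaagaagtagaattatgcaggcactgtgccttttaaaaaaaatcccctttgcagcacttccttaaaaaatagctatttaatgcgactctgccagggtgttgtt
Kmo: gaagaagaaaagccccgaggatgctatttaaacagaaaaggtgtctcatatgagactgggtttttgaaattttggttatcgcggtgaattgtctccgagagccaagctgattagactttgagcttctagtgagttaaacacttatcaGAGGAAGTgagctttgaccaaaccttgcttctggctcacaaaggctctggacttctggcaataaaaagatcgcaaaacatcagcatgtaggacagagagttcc
Mmp8: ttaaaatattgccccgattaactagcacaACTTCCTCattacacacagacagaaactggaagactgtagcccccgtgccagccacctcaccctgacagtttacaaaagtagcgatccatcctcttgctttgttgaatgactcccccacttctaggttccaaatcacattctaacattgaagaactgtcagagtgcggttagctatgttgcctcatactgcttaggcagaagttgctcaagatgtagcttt
The PU box stood at -103 in Kmo and at -221 in Mmp8, counted from the start site, the second on the opposite strand. This exact sequence was present in 2.36% of 18109 promoters. The M-box TCATGTG of the MITF and TFE factors was in 2.24% of all promoters and in 0 of the 27 genes, and the E-box CACGTG was in 7.38% of all and in 1 of the 27, Met. These matches describe letters in a window.

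The 2 bead-free arrays differed from each other more than any other pair of replicates. Of 8861 genes above background on at least 1 of them, 128 (1.44%) were at least 2-fold higher on array 1 and 1 (0.0113%), Retreg3, on array 2. On array 1, 47 genes were at least 4-fold higher. The pairs of the other 3 groups had 16, 17 and 4 genes 2-fold apart, the last for the Gr1lo arrays with beads. Prg4, which encodes the lubricant proteoglycan 4, was at 12.11 on bead-free array 1, at 6.45 on array 2, and at 5.97 and 5.41 with beads. Alox15, a lipoxygenase of resident peritoneal macrophages and eosinophils, was at 11.16 on array 1, at 6.30 on array 2, and at 6.24 and 6.18 with beads. Cd5l, a secreted protein of tissue macrophages, was at 10.99 on array 1, at 6.19 on array 2, and at 7.63 and 6.65 with beads. In each of these 3 genes array 1 stood alone, and the other bead-free array was on the side of the bead arrays. Of the 128 genes, both bead arrays lay below both bead-free arrays in 57 and between them in 46. The other 25 followed neither pattern. Of all genes 19.4% had both bead arrays below. The 128 were picked for a high array 1, which leaves little room above it, so these counts are not a result about beads.

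**Figure D2:**
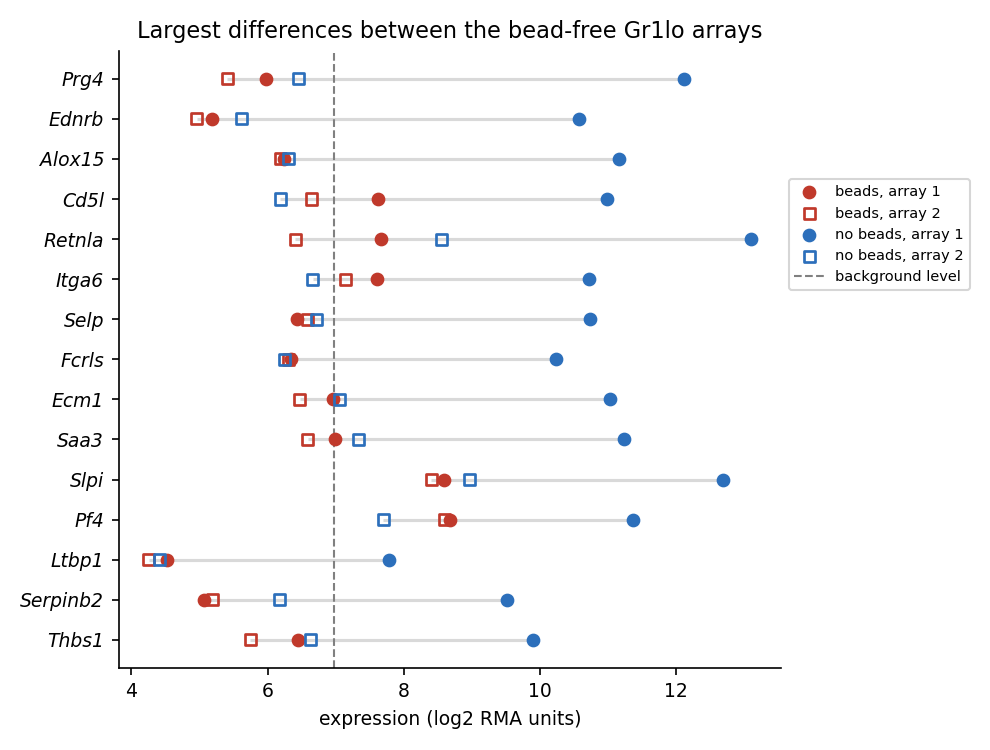
Expression, in log2 RMA units, of the 15 genes with the largest excess of bead-free array 1 over bead-free array 2, on the 4 Gr1lo arrays, with the background level dashed. The filled blue circles, bead-free array 1, lie to the right of the other 3 arrays in every gene, for example Prg4 at 12.11.

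The other genes with the largest gaps were the endothelin receptor Ednrb, the resistin-like protein Retnla, the integrin chain Itga6, P-selectin (Selp), the Fc receptor-like Fcrls, Ecm1, the acute phase gene Saa3, the protease inhibitor Slpi, the chemokine Pf4, Ltbp1, Serpinb2 and Thbs1. Their gaps ran from 3.27 to 4.95. In the other direction the gaps were smaller, from -1.33 to -0.58 (array 1 minus array 2). They belonged to Retreg3, Msl2, the adaptor subunit Ap2b1, Psg28, Megf9, the lymphoid transcription factor Ikzf3, Mthfs, Ripor2, the cold-inducible RNA-binding protein Cirbp, Fam135a, the growth factor Vegfc, Mccc2, Adamdec1, the survival factor Bcl2 and 1 predicted gene. A list of 20 genes known from resident peritoneal macrophages was drawn up after these values were seen, and 19 were measured. Their mean level was 8.92 on bead-free array 1, 6.24 on array 2, and 6.20 and 6.05 on the bead arrays, and on the Gr1hi arrays it was 6.33 to 6.59. The list's median bead difference was -1.32, which was -3.35 against array 1 and -0.09 against array 2. Gata6, the transcription factor that defines these macrophages, was not above background on any Gr1lo array, at 5.59 to 6.51. Its bead difference was -0.74 against bead-free array 1 and -0.09 against array 2. At levels below background this gap between the bead-free arrays cannot be read as expression. Cell cycle genes were also higher on array 1, by a list median of 0.33. Whether cells of another type were in that sort was not tested.

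The complement genes C1qa, C1qb and C1qc, which tissue macrophages and nonclassical monocytes transcribe together, were compared with each bead-free array. C1qa was at 10.66 and 10.13 with beads, at 11.37 on bead-free array 1 and at 8.16 on array 2. C1qb was at 11.87 and 11.32 with beads, at 12.06 on array 1 and at 9.37 on array 2. C1qc was at 10.31 and 9.88 with beads, at 10.77 on array 1 and at 7.74 on array 2. The bead arrays lay between the bead-free arrays in all 3 genes, and the differences of 0.63 ± 0.79, 0.88 ± 0.67 and 0.84 ± 0.75 were not called. Against array 2 alone they were 2.23, 2.22 and 2.36, all called (limma adjusted p = 0.00504, 0.00551 and 0.00139). Against array 1 alone they were -0.97, -0.46 and -0.68, with adjusted p = 0.05, 0.293 and 0.104, C1qa falling just under the threshold. With 1 bead-free array the fit takes its spread from the other groups.

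Other macrophage genes were set against each bead-free array as well. Maf, a transcription factor of macrophages, was at 10.76 and 9.91 with beads and at 9.34 and 8.54 without, higher against either bead-free array, with 1.40 ± 0.29 against both (adjusted p = 0.135). Axl, a receptor for apoptotic cells, was at 9.72 and 9.18 against 8.81 and 7.92 (1.08 ± 0.28, adjusted p = 0.194), and its partner receptor Mertk was at 8.60 and 8.01 against 8.04 and 6.16 (1.21 ± 0.61). Both bead arrays lay above both bead-free arrays in Maf and Axl. Cd163, Timd4 and Vsig4, receptors of resident macrophages, were 2.63, 2.09 and 1.75 higher on bead-free array 1 than on array 2. Against array 2 alone they differed by -0.85, -0.15 and 0.03 and none was called, while all 3 were called lower against array 1 alone (-3.48, -2.24 and -1.72). Vcam1, an adhesion molecule of erythrocyte-clearing macrophages, was at 6.66 and 6.65 against 6.13 and 6.31 (0.43 ± 0.10, adjusted p = 0.157), below background. Of 26 measured tissue macrophage genes 0 were called in limma. At an unadjusted p under 0.05 there were 5 higher and 3 lower, against 6.27% and 6.93% of all genes. The list's median difference was 0.12, and it was -0.11 against array 1 and 0.25 against array 2.

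**Figure D3:**
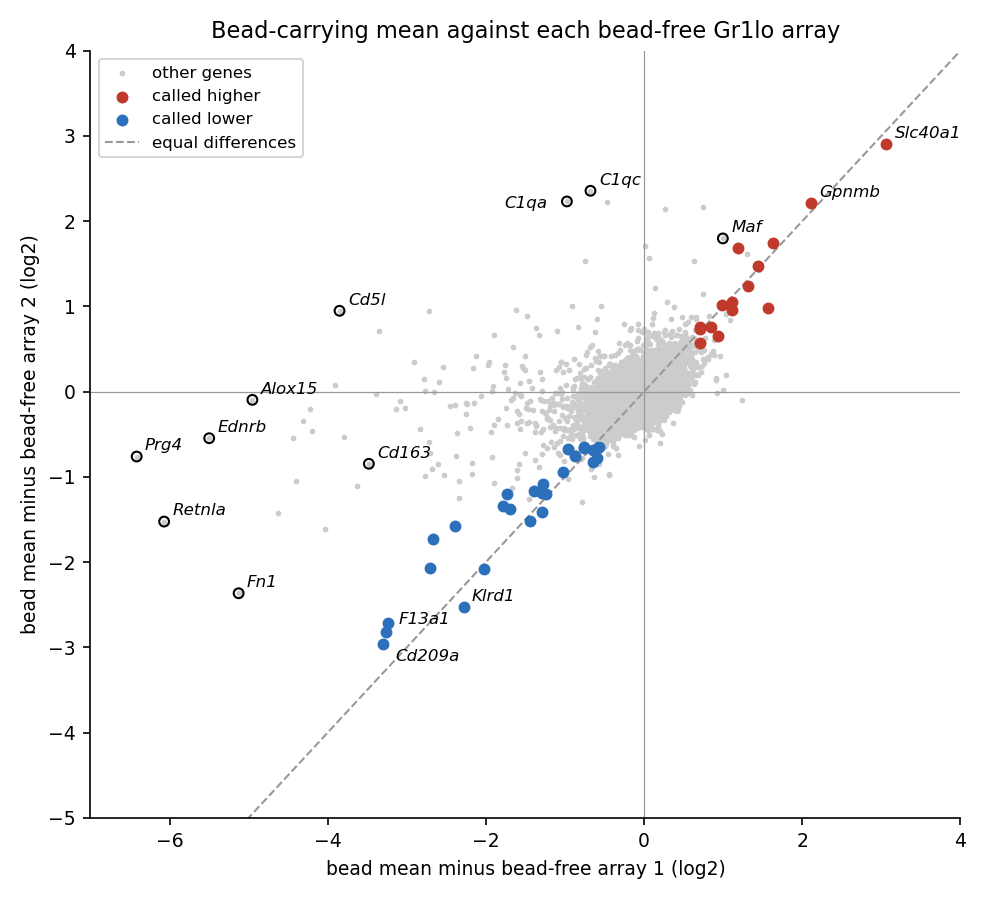
Difference between the mean of the bead arrays and bead-free array 1 (x axis) or bead-free array 2 (y axis) for 18193 genes, in log2 units. Height above the dashed line of equal differences is the gap between the bead-free arrays. A call needs a gap that is small beside the difference, so called genes lie near the line by selection. Prg4, Cd5l and C1qa lie far above it.

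Each called gene was set against each bead-free array alone. All 41 were called against array 1 alone, among 354 genes called there, 39 higher and 315 lower. Against array 2 alone 29 genes were called, 12 higher and 17 lower, and 19 of the 41 were among them. These 19, 6 higher and 13 lower, included Slc40a1 (3.06 and 2.90 against array 1 and array 2), Gpnmb (2.11 and 2.21), Igf1 (1.44 and 1.47) and Spic (1.11 and 1.05) among the rises. Among the falls they included Cd209a (-3.30 and -2.96), F13a1 (-3.26 and -2.82), Vcan (-3.23 and -2.71), Klrd1 (-2.28 and -2.53) and Chil3 (-1.44 and -1.52). Of the 22 that lost their call against array 2, Gbp8 had 1.63 and 1.74, Clec10a -1.74 and -1.20, Cd177 -2.40 and -1.58, and Ahr -1.27 and -1.09. Fn1 was called against each array alone, by -5.13 and -2.37, as was F5, coagulation factor V, by -4.62 and -1.42.

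Genes of nonclassical identity showed no called change. Of 20 measured nonclassical monocyte genes 0 were called in limma, and their median difference was 0.08. At an unadjusted p under 0.05 there were 3 higher and 1 lower, against 6.27% and 6.93% of all genes. The differences were 0.08 (95% confidence interval -0.15 to 0.31) for Nr4a1, 0.06 (-0.15 to 0.26) for Treml4, and 0.10 (-0.20 to 0.41) for Spn, the sialophorin CD43. Ace differed by 0.29 (0.01 to 0.57, adjusted p = 0.373) and Cd9, a tetraspanin, by 0.60 ± 0.13 (adjusted p = 0.145). Cx3cr1, the fractalkine receptor, was at 9.90 and 9.89 with beads and at 10.10 and 10.34 without (-0.32 ± 0.11, adjusted p = 0.283).

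Lipid genes gave 0 calls among 21 measured in limma and a median of 0.05. At an unadjusted p under 0.05 there were 3 higher and 1 lower, against 6.27% and 6.93% of all genes. Pparg, a lipid-sensing nuclear receptor, was at 10.44 and 10.50 with beads and at 9.60 and 9.99 without (0.67 ± 0.14, adjusted p = 0.135). Nr1h3, the oxysterol receptor LXR alpha, was at 8.89 and 8.44 against 8.15 and 7.99 (0.59 ± 0.15, adjusted p = 0.18). Abca1, a cholesterol exporter that LXR induces, differed by 0.26 ± 0.12. Cholesterol synthesis genes, 16 of them measured, had 0 called but 8 lower and 0 higher at an unadjusted p under 0.05, against 6.93% and 6.27% of all genes, and a median of -0.37. Insig1, the sterol-regulated anchor of this pathway, was at 8.45 and 8.12 with beads and at 9.06 and 8.83 without (-0.66 ± 0.13, adjusted p = 0.116), and Sc5d and Msmo1, late enzymes of the pathway, differed by -0.48 ± 0.11 and -0.47 ± 0.11. The list median was -0.51 against bead-free array 1 and -0.23 against array 2.

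**Figure D4:**
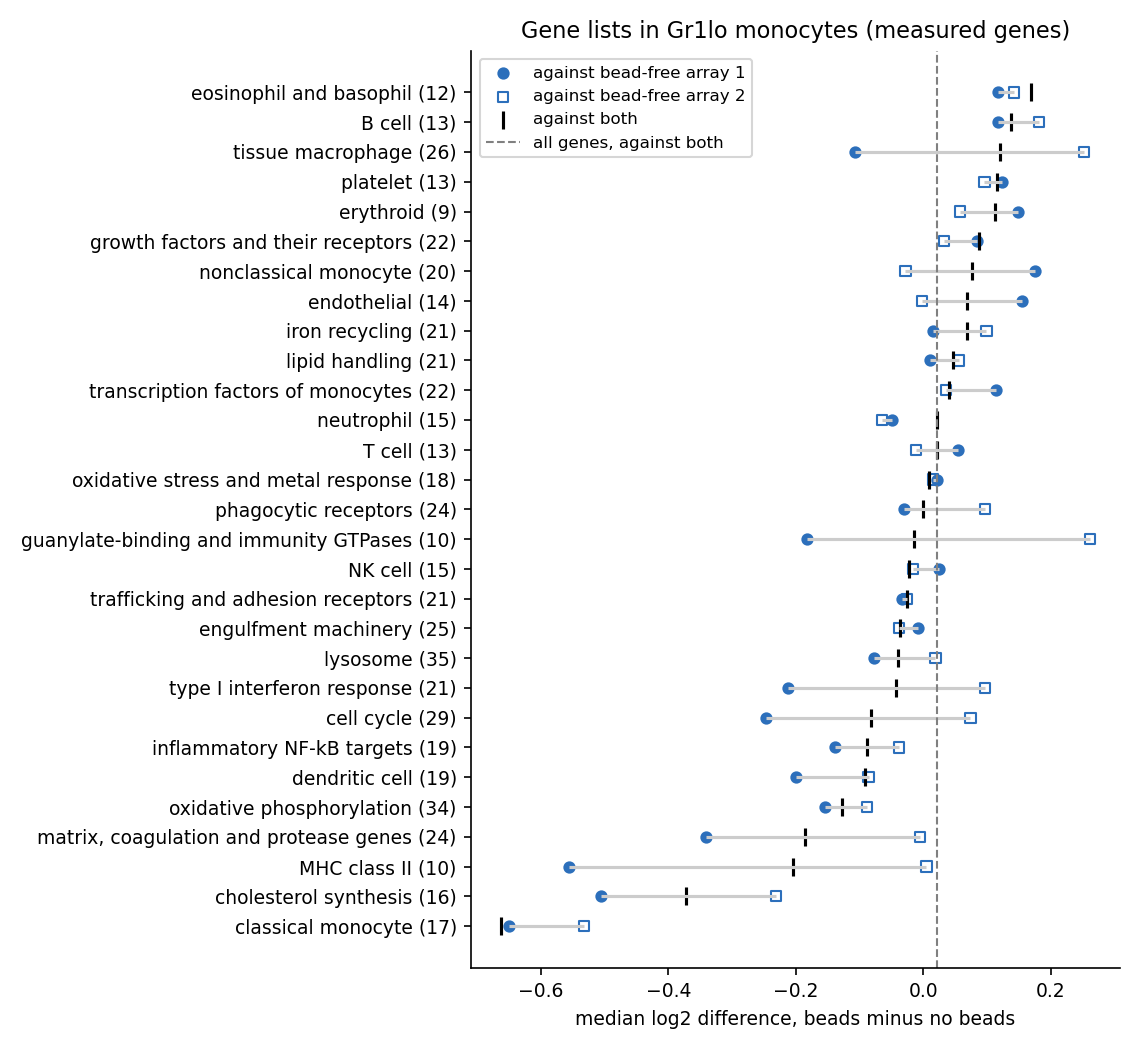
Median log2 difference of 29 gene lists between Gr1lo cells with and without beads, against bead-free array 1 (circles), array 2 (squares) and both (black bars), with the number of measured genes in parentheses and the median of all genes dashed at 0.02. Classical monocyte genes are the lowest of these 29 at -0.66, and the tissue macrophage and MHC class II lists spread widely between the bead-free arrays.

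The lists of phagocytic receptors, trafficking receptors and inflammatory genes held no called gene. Of all genes only 0.225% were called, so lists of this size would rarely hold one. Of 24 phagocytic receptor genes 0 were called in limma, with 2 higher and 2 lower at an unadjusted p under 0.05 and a median of 0.00. At that p 6.27% of all genes were higher and 6.93% lower. The 21 trafficking and adhesion receptors had 0 called, 3 higher and 3 lower at that p and a median of -0.03. Inflammatory NF-kB targets had 0 of 19 called and a median of -0.09, with 3 higher and 1 lower at that p. Among them Ccl4, a chemokine for monocytes and lymphocytes, was at 9.32 and 9.47 with beads and at 8.57 and 8.66 without (0.78 ± 0.12, adjusted p = 0.0678), and Ccl3 of the same family differed by 0.96 ± 0.32. Oxidative phosphorylation had 0 of 34 called and 0 higher and 8 lower at that p, against 6.27% and 6.93% of all genes, with a median of -0.13. In 21 of the 34 both bead arrays lay below both bead-free arrays, against 19.4% of all genes. Cell cycle genes had 0 of 29 called, 1 higher and 4 lower at that p, and a median of -0.08, which was 0.07 against bead-free array 2.

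Markers of other blood cells were called in 0 of 13 T cell, 13 B cell, 12 eosinophil and basophil, 13 platelet, 9 erythroid and 14 endothelial genes in limma. At an unadjusted p under 0.05 the T cell list had 0 genes in either direction, and the others had 0 to 3 higher and 0 or 1 lower. Of all genes 6.27% were higher and 6.93% lower at that p. Mean levels of the T cell list were 6.16 to 6.31 over the Gr1lo arrays, of the B cell list 6.55 and 6.66 with beads against 6.41 and 6.36 without, and of the erythroid list 6.47 to 6.67, all below background. The B cell receptor chain Cd79b was at 8.47 and 8.16 with beads and at 7.66 and 7.45 without (0.77 ± 0.14, adjusted p = 0.0947), and Cd22, a B cell lectin, differed by 0.61 ± 0.13 (adjusted p = 0.14). The T cell adhesion molecule Cd2 was at 7.93 on bead-free array 1 and between 5.14 and 5.39 on the other Gr1lo arrays. The part of other cells in the called differences was not tested.

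The bead difference of Gr1lo cells was set beside that of Gr1hi cells by testing the difference of the 2 differences in limma. Of 18193 genes 8 were called in this test (0.044%), 6 of them called in Gr1lo cells. Cd209a differed by -3.13 in Gr1lo and by 0.08 in Gr1hi cells, where it was below background at 6.35 to 6.52 (difference of -3.21 ± 0.17, adjusted p = 0.000646). F13a1 differed by -3.04 and -0.34 (difference of -2.71 ± 0.21, adjusted p = 0.00443), Vcan by -2.97 and -0.51 (-2.46 ± 0.22, adjusted p = 0.00778), Klrd1 by -2.40 and -0.30 (-2.10 ± 0.17, adjusted p = 0.00443; below background on all Gr1hi arrays, at 5.68 to 6.14) and Chil3 by -1.48 and -0.08 (-1.40 ± 0.11, adjusted p = 0.00443). Vcan lost this call in 6 of its 15 other fits, among them the mean of all its probe sets and both fits without a Gr1lo bead array. F13a1, Vcan and Chil3 were higher in Gr1hi than in Gr1lo cells on every array, with Vcan at 11.51 to 12.14 and Chil3 at 13.94 to 14.05.

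Slc40a1 rose in both subsets, by 2.98 in Gr1lo and 1.20 in Gr1hi cells. The Gr1hi arrays were at 9.11 and 9.06 with beads and at 7.78 and 7.98 without, so that bead-carrying cells of both subsets lay between 9.06 and 9.51. The difference of 1.78 ± 0.20 had an adjusted p of 0.0347 and lost its call in 10 of the 15 other fits, among them both without a Gr1hi bead array. Fabp5, a fatty acid carrier, was at 10.67 and 10.43 with beads and at 10.75 and 10.56 without in Gr1lo cells (-0.10 ± 0.11), and differed by 1.34 in Gr1hi cells (difference of -1.44 ± 0.15, adjusted p = 0.0253), a call lost in 6 of 15 other fits, each without 1 array. Ms4a2, an IgE receptor chain of basophils below background on all arrays, was the other gene called here (1.14 ± 0.13, adjusted p = 0.0347). The count of 8 was 3 and 4 without Gr1hi bead array 1 or 2, 1 (Cd209a) without Gr1hi bead-free array 1 and 167 without Gr1lo bead-free array 2.

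For the other called genes the difference between subsets was not called. Gpnmb differed by 2.16 in Gr1lo and 1.40 in Gr1hi cells (adjusted p of the difference 0.558), Spic by 1.08 and 1.47, Igf1 by 1.46 and 0.79, Gbp8 by 1.69 and 1.51, Snx24 by 1.27 and 1.12, and Id3 by 1.00 and 0.85. Slc40a1, Gpnmb, Spic, Gbp8, Snx24 and Ndrg1 were called in Gr1hi cells too, in the same direction. Gbp8 was below background on all Gr1hi arrays, at 4.26 to 6.07. Adamdec1 differed by 1.28 in Gr1lo cells and by -0.27 in Gr1hi cells, where it was below background at 5.49 to 5.88, and that difference had an adjusted p of 0.173. Gr1hi and Gr1lo groups share no arrays, but under the treatment protocol they also differ in clodronate, which cannot be told apart from the subset.

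**Figure D5:**
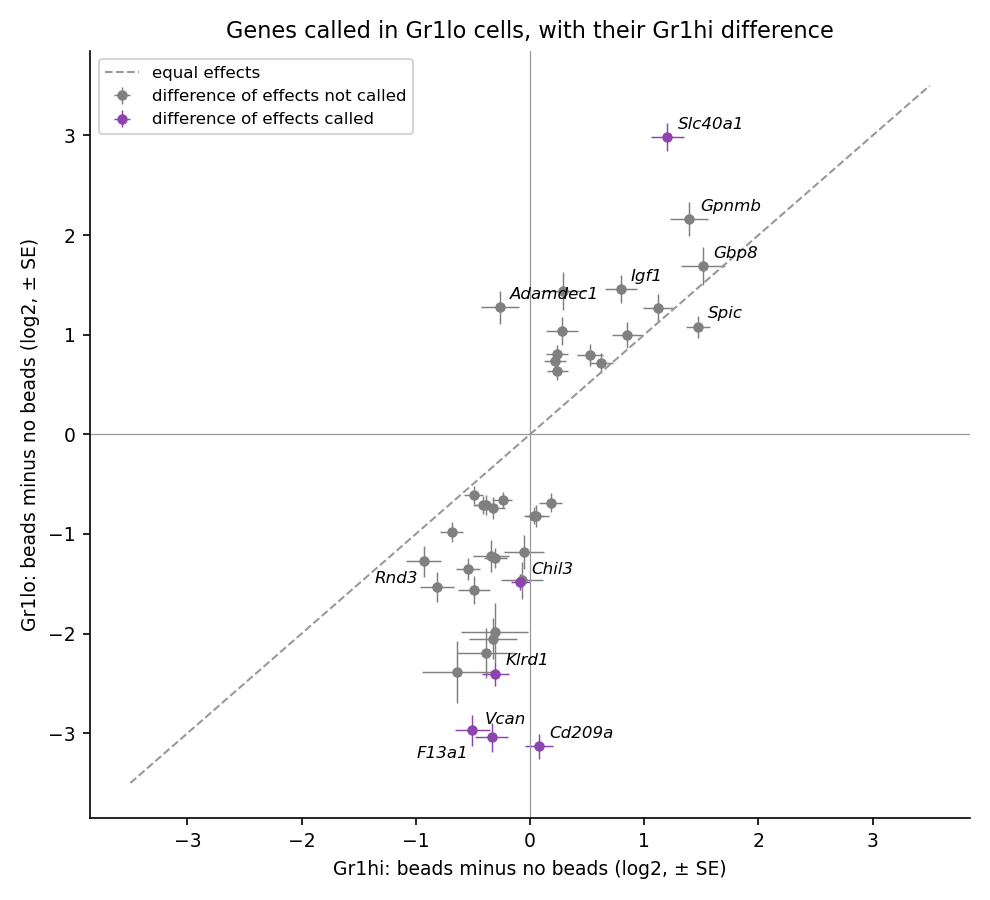
Difference between cells with and without beads in Gr1hi (x axis) and Gr1lo monocytes (y axis) for the 41 genes called in Gr1lo cells, in log2 units with SE bars. Purple genes have a called difference between subsets: Slc40a1 lies above the line of equal effects at 2.98 and 1.20, and Cd209a, F13a1, Vcan, Klrd1 and Chil3 lie far below it with Gr1hi differences from -0.51 to 0.08.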

How the data were processed

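The log2 values deposited by the authors, for 45101 probe sets on 8 arrays with 0 missing, were used unchanged. RMA and limma are named in the submitters' processing notes. The sources used here do not give versions or a chip definition. RNA was taken from sorted cells, amplified and labelled with biotin per the labels' protocols. RMA smooths over probes and equalises the distribution of values between arrays, so a shift shared by most genes cannot be seen.

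Probe sets with 1 gene symbol (34945) gave 18193 genes, each read by its probe set with the highest mean, and 932 with several symbols, 9160 without one and 64 controls were left out of the gene tests. A model of 4 group means over the 8 arrays was fitted by lmFit and moderated by eBayes in limma 3.58.1 (R 4.3.3), with residual degrees of freedom 4 and prior 4.48. Tests were two-sided, corrected by Benjamini-Hochberg over all genes, and checked on simulated data. The precision is limited by 2 arrays per group.

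The genes and lists were chosen with earlier results of these data known. Named are all called genes (predicted ones counted only), members of 29 lists, the 15 genes with the largest gap between the bead-free arrays in each direction and subset markers. The resident peritoneal macrophage list was added after the values were seen. Alternatives were other variance estimates, array weights, centring, cyclic loess, probe set rules, a background filter, a fit of the Gr1lo arrays alone, a block for the replicate number, and fits without each array in turn.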

Additional observations from a re-analysis of the deposited data

Results flagged for a closer look

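The bead difference was larger or smaller in Gr1lo than in Gr1hi cells, by limma's test of the difference itself, in 8 genes. The Gr1lo difference minus the Gr1hi difference was -3.21 for Cd209a, -2.71 for F13a1, -2.46 for Vcan, -2.10 for Klrd1, -1.44 for Fabp5, -1.40 for Chil3, 1.14 for Ms4a2 and 1.78 for Slc40a1. Cd209a was called in every one of its 15 other fits, whereas Slc40a1 lost the call in 10 of 15, Vcan and Fabp5 in 6 of 15, and Ms4a2, below background throughout, in 10 of 14. Outside the monocyte transcripts, the poly-A controls were 1.47 and the hybridization controls 1.07 higher on the Gr1lo arrays with beads than on those without, and their part in the gene differences was not tested.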

How the results depend on the processing

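The 41 calls became 12 when the Gr1lo arrays were fitted alone and 127 with trended and robust variances, of which 12 and 38 were among the 41. Leaving out 1 array gave 17 to 354 calls. The 8 genes whose bead difference differed between subsets became 5 with genes above background, 5 with the mean of all probe sets and 17 with trended and robust variances, and 1 to 167 with 1 array left out. The cause was not tested, except that with bead-free array 2 left out the lone bead-free array is assumed to vary like the other groups. The remaining alternatives gave 29 to 54 calls.

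With 1 array left out at a time, uncalled differences changed sign for C1qa (-0.97 to 2.23), C1qb (-0.46 to 2.22), C1qc (-0.68 to 2.36), Vsig4 (-1.72 to 0.025), Cd5l (-3.85 to 0.95), Mrc1 (-1.47 to 0.89), Fabp5 (-0.22 to 0.019), Nr4a1 (-0.011 to 0.17), Treml4 (-0.034 to 0.15), Spn (-0.031 to 0.24), Itga6 (-3.35 to 0.71), Fcrls (-3.90 to 0.075), Pf4 (-2.72 to 0.95) and Retreg3 (-0.096 to 1.24). None of the 41 called genes changed sign, which their arrays, not overlapping between groups, did not allow with 1 array left out.

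Replicate numbers were not taken to pair the arrays: deviations of same-numbered arrays correlated at 0.273 between the Gr1lo groups, 0.36 between the Gr1hi groups and -0.02 to 0.085 across subsets. With the replicate number as a block, 54 genes were called in Gr1lo cells, 38 of them among the 41, and 10 between subsets, 6 of them among the 8. The calls lost were Clec4n, Klra2 and Vamp5, and between subsets Slc40a1 and Ms4a2. The block was the same shift in every group, so it does not represent a pairing within each subset, which was not fitted. Of 29 list medians 7 moved by more than the spread between replicates under some setting. With 2 arrays per group and no counts, depth cannot be assessed, and genes near the background level have differences that are bounds.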
